A study of Mus musculus with 4 samples.

Results

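In the testes of newborn mice, 8 genes without a well-described role in that organ stood far apart between wild-type animals and animals carrying a dominant-negative thyroid hormone receptor. They are Clec12b, Gm98, Asb9, Dao, Fmr1nb, Lrrc23, Tmsb15b1 and Ccdc67, 8 of the 22609 genes counted. They were chosen by their counts in these same libraries, for wild-type and mutant values that were far apart and did not overlap, so every difference between the groups given for them is a description of that choice and carries no test. 7 of the 8 were lower in the mutant libraries and 1, Gm98, was higher.

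Thyroid hormone acts in the nucleus through receptors that bind DNA and switch genes on or off according to whether the hormone is bound. The alpha receptor, encoded by Thra, is present in the Sertoli cells of the immature testis, where the hormone is known for ending the cells' proliferation and starting their maturation. Around birth Sertoli cells enclose germ cells called prospermatogonia, and both lie within cords wrapped by peritubular cells. The 8 genes belong to no single pathway. Clec12b encodes a lectin-like receptor, Gm98 a transcription factor, Asb9 a ubiquitin ligase subunit, Dao a metabolic enzyme and Fmr1nb a membrane protein of the male germ line. Lrrc23 and Ccdc67 encode proteins of cilia and centrioles, and Tmsb15b1 a small actin-binding peptide.

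The wild-type group was 2 libraries of whole testes from mice with a normal alpha 1 receptor. Likewise the mutant group was 2 libraries from mice with the dominant-negative receptor made from the TRαAMI allele. Both groups were on a mainly C57BL/6J background, aged 3 days after birth, and came from AmhCre mice mated to TRαAMI heterozygotes. AmhCre expresses the recombinase under a promoter active in Sertoli cells, so the allele is meant to be switched on there and not in the other cells sampled. Whether the wild-type mice carried AmhCre is not stated in the sources used here, and neither is how many animals gave each library. The p-values below therefore measure only the spread between these samples.

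Gene counts ran from 10230512 to 15636832 per library, with the most in mutant replicate 2 and the fewest in wild-type replicate 2. Thra stood at 398 and 257 CPM (counts scaled to a common library size, as edgeR gives them) in the wild-type pair and 237 and 194 CPM in the mutant pair. Its log2 fold change was -0.60 ± 0.19 (SE), which edgeR's quasi-likelihood test did not call (adjusted p = 0.0964), and counts per gene cannot separate the normal from the mutant transcript. That test called 839 of 14788 tested genes (5.67%) at an adjusted p below 0.05, 3.15% of tested genes as higher in mutant and 2.52% as lower. The CPM of the groups did not overlap in 57.3% of tested genes. The mutant libraries also carried skeletal muscle RNA: Acta1, the skeletal actin gene, was at 0.601 and 0.686 CPM in wild type against 875 and 222 CPM in the mutant pair.

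Upstream sequences are shown first, because they bear on the genes whose values are hardest to read from a gene name alone. Lrrc23 and Ccdc67 are the genes of cilia among the 8. The stretch upstream of the Lrrc23 start, and of 1 of the 2 listed Ccdc67 starts, holds a 14-base match to a form of the X-box, the element that RFX factors, known regulators of cilium genes, bind. The form searched reads GT, any 2 bases, CCAT, any 3 bases and AAC. The match is in capitals, and both stretches are read on the gene's own strand in RefSeq's GRCm38.p6, Lrrc23 at chr6:124779728-124779816 (minus strand) and Ccdc67, which RefSeq names Deup1, at chr9:15627870-15627983 (minus strand).
Lrrc23: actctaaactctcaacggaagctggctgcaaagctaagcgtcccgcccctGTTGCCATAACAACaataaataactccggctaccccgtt
Ccdc67: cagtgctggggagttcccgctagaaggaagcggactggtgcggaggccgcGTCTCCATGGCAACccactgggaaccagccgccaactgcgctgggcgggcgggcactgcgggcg
The match starts 39 bases before the Lrrc23 start and 87 bases before the first listed Ccdc67 start, while the window of the second listed Ccdc67 start holds no match. Its letters were chosen after these sequences were seen. Searched on both strands, this form occurs in 0.697% of 32851 windows of 250 bases before a gene start, and GTTGCC, a shorter part of the X-box that overlaps it in both genes, occurs in 10.4%. A match is a run of letters and not evidence of binding.

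Tmsb15b1 is shown beside Tmsb15b2 because the 2 genes are near-identical neighbours on the X chromosome and their values part below. Their upstream stretches (RefSeq, GRCm38.p6, chrX:136976875-136977089 and chrX:136958015-136958229, both minus strand) align over 215 bases with 210 identical. The stretches do not lie at the same distance from their listed starts. That of Tmsb15b1 runs from -215 to -1 and that of Tmsb15b2 from -250 to -36. The 5 bases that differ are in capitals.
Tmsb15b1: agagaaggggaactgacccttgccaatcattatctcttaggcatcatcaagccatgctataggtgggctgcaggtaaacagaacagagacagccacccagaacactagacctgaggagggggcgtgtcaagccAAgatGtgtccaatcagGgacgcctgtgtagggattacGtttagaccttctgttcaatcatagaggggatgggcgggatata
Tmsb15b2: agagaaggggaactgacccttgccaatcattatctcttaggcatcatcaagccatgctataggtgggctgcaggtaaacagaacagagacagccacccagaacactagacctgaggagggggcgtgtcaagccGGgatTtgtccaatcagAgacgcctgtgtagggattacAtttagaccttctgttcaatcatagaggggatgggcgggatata
RefSeq promoter windows were matched for 7 of the 8 genes (all but Gm98), 10 windows in all. The half-site AGGTCA, which thyroid hormone receptors recognise, occurs on either strand in 14% of all windows. It was found once at the second listed start of Dao, 72 bases before it, and once at the first listed start of Ccdc67, 151 bases before it. The paired form, AGGTCA repeated in the same direction after any 4 bases, is in 5 of the 32851 windows and in none of these 10.

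Clec12b (ENSMUSG00000030158.5, chromosome 6, 129325533 to 129335521, minus strand, mm9) had the highest CPM of the 8 in wild type. Its product is a C-type lectin-like receptor with an inhibitory motif in its tail, known from myeloid cells. Clec12b had 71.6 and 89.5 CPM in the wild-type libraries and 22.7 and 22.1 CPM in the mutant libraries, given here and below in the order replicate 1, replicate 2. The group means were 80.6 ± 12.6 and 22.4 ± 0.404 CPM (SD, n = 2 each). The mutant libraries were nearly equal, and the lowest wild-type value was 3.16 times the highest mutant value. The log2 fold change was -1.85 ± 0.13 (SE), 3.60-fold lower in mutant, with 1867 counts in the wild-type group and 595 in the mutant group. The ratio of summed counts scaled for depth was 3.56 with an exact 95% interval from 3.24 to 3.91. Such intervals cover counting error only.

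Related lectin genes were called at about the share of all genes. Of 17 tested genes in the list around Clec12b, lectins with the signalling genes of such receptors, 1 passed the test, falling (5.88%, beside 5.67% of all tested genes), and the median log2 fold change was 0.08 against -0.01 over all tested genes. It was Clec3b, which encodes the secreted protein tetranectin, from 57.7 and 28.6 CPM to 12.3 and 18.0 CPM (log2 fold change -1.50 ± 0.32, adjusted p = 0.0364 by edgeR). Without wild-type replicate 1 it stood at -0.90 and was not called (adjusted p = 0.105). Clec12a and Clec1a, its neighbours in the lectin cluster and chosen after their values were seen, stood at -0.28 ± 0.45 and -0.18 ± 0.37. Markers of macrophages and leukocytes, cells in which such receptors are known, went the other way. Of 15 tested markers 4 rose and none fell (26.7%, beside 5.67% of all tested genes). None was at 0 in every library, and their summed level was 304 and 375 CPM in wild type against 483 and 667 CPM in mutant. The 4 calls became 2 when either wild-type library or mutant replicate 2 was left out, and 7 when mutant replicate 1 was. In whole-testis RNA, fewer cells of a type and less RNA per cell cannot be told apart. The part of these cells in the Clec12b values was not tested.

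Gm98 (ENSMUSG00000036098.8, chromosome 19, 10282762 to 10315238, minus strand) was the only one of the 8 that was higher in mutant testes. RefSeq names it Myrf, the myelin regulatory factor, a membrane-bound transcription factor that cuts itself free and is required for myelination by oligodendrocytes. Its level was 22.7 and 23.0 CPM in wild type and 78.6 and 69.5 CPM in mutant. The group means were 22.9 ± 0.251 and 74.0 ± 6.48 CPM (SD, n = 2 each), and every mutant value was at least 3.02 times every wild-type value. The log2 fold change was 1.69 ± 0.11 (SE), 3.23-fold higher, from 537 and 1952 counts. It lay between 1.60 and 1.78 when each library was left out in turn.

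Genes tied to the factor's role in myelin are given for comparison. Of the 10 tested genes in the list of its partners and targets, 1 passed the test, rising (10%, beside 5.67% of all tested genes), and the median log2 fold change was 0.12. Olig2 and Nkx2-2, transcription factors of the oligodendrocyte lineage, had no count in any library. The gene that rose was Mbp, myelin basic protein, from 27.8 and 30.1 CPM to 49.9 and 39.2 CPM (log2 fold change 0.62 ± 0.14, adjusted p = 0.0482 by edgeR). Its call was kept only without mutant replicate 2. It ended on leaving out wild-type replicate 1 (0.56, adjusted p = 0.145), wild-type replicate 2 (0.67, adjusted p = 0.1) or mutant replicate 1 (0.44, adjusted p = 0.196). The genes whose profile over the 4 libraries lay nearest to that of Gm98 were 6330403A02Rik, Gldn and Emilin2. Likeness was the root mean square distance between log2 CPM values centred on each gene's mean, searched over 13491 genes, and it was 0.068, 0.098 and 0.106 for these 3. Gldn, which encodes gliomedin, was at 8.71 and 7.45 CPM in wild type and 29.0 and 23.4 CPM in mutant. Emilin2, a glycoprotein of the extracellular matrix, was at 13.5 and 13.2 against 39.2 and 36.1 CPM.

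**Figure D1:**
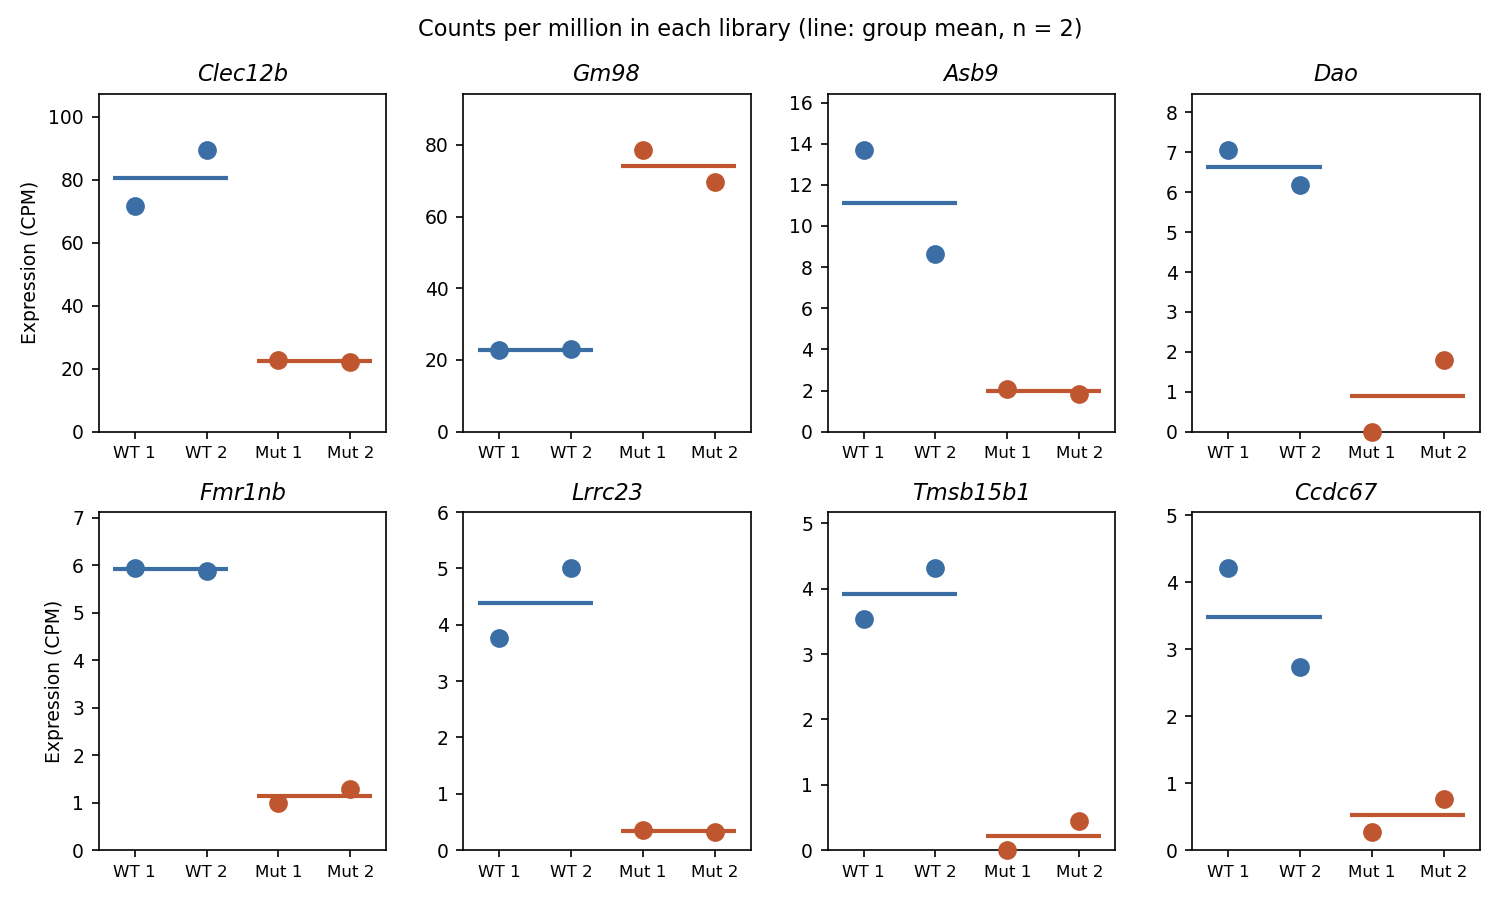
Expression of each of the 8 genes in CPM (vertical axis, from 0, with its own scale per gene) in wild-type (WT, blue) and mutant (Mut, orange) replicates 1 and 2, with lines at the group means. The groups do not overlap in any panel, the rule by which the genes were chosen; Gm98 alone is higher in mutant, and Dao and Tmsb15b1 are at 0 in mutant replicate 1.

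Asb9 (ENSMUSG00000031384.2, X chromosome, 160944259 to 160977684, plus strand) encodes an ankyrin repeat protein whose SOCS box recruits the Cul5 ubiquitin ligase, and which is known to bind creatine kinase B. Its level was 13.7 and 8.63 CPM in wild type and 2.09 and 1.85 CPM in mutant. The group means were 11.1 ± 3.57 and 1.97 ± 0.171 CPM (SD, n = 2 each). The wild-type replicates differed 1.58-fold between themselves, and the lower of them was still 4.12 times the higher mutant value. On the log2 scale the change was -2.53 ± 0.33 (SE), 5.77-fold lower, and it ran from -2.80 to -2.14 with each library left out.

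None of the 17 tested genes in the list of other SOCS-box proteins, their ligase partners and creatine kinases was called by edgeR, with 4 at an unadjusted p below 0.05 and 0 called by DESeq2 or limma voom. The list's median log2 fold change was 0.05. The smallest p-values belonged to Rnf7, the RING subunit of the ligase, at -0.30 ± 0.09 (adjusted p = 0.0773), and to Tceb2, elongin B, at -0.28 ± 0.09 (adjusted p = 0.104). Ckb, the creatine kinase that the protein binds and a gene chosen after its values were seen, was at 44.2 and 34.5 CPM in wild type and 47.4 and 46.6 CPM in mutant. The nearest profiles to that of Asb9 were those of Pramef12 at a distance of 0.068, 1700018B24Rik at 0.155 and Fam59b at 0.213. Pramef12, a gene of the Prame family that is expressed in the germ line, went from 46.6 and 30.9 CPM to 8.01 and 7.60 CPM.

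Fmr1nb (ENSMUSG00000062170.6, X chromosome, 66015014 to 66057742, plus strand) lies beside the fragile X gene Fmr1 and encodes a membrane protein known as a cancer-testis antigen, expressed in testis and in some tumours. It had the closest replicates of the 8 in wild type. Its values were 5.93 and 5.88 CPM in wild type and 1.00 and 1.28 CPM in mutant. Means were 5.91 ± 0.0365 and 1.14 ± 0.195 CPM (SD, n = 2 each). The groups were separated by 4.61-fold between their nearest libraries, and the log2 fold change was -2.34 ± 0.32 (SE), 5.06-fold lower. These levels rest on 139 counts in wild type and 31 in mutant, a depth-scaled ratio of 5.08 with a 95% interval from 3.42 to 7.76.

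No gene of the fragile X family was called, while several X-linked germ-line genes were. Fmr1, whose nearest end is 43876 bases from Fmr1nb and which was chosen after its values were seen, stood at 139 and 147 CPM in wild type and 144 and 150 CPM in mutant (log2 fold change 0.04 ± 0.08, adjusted p = 0.807 by edgeR). Fxr1 stood at 0.06 ± 0.10 and Fxr2 at 0.00 ± 0.10, both also chosen after their values were seen. Over the whole list of fragile X family and X-linked germ-line genes, 7 of 21 tested genes were called (33.3%, beside 5.67% of all tested genes), all as lower, with a median log2 fold change of -0.96. The 7 were Fthl17, Usp26, Taf7l, Tex13, Tktl1, Tex11 and Nxf2.

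Usp26, a ubiquitin protease of the germ line, fell from 24.3 and 19.6 CPM to 8.83 and 7.21 CPM (log2 fold change -1.48 ± 0.20, adjusted p = 0.0104 by edgeR). Taf7l, a germ-cell form of a general transcription factor subunit, fell from 80.0 and 55.2 CPM to 27.9 and 21.7 CPM (-1.46 ± 0.19, adjusted p = 0.0104). These were the 2 of the 7 that stayed called with each library left out in turn. Tex13 fell from 22.2 and 15.2 to 5.73 and 7.92 CPM (-1.44 ± 0.25, adjusted p = 0.0226), and Fthl17, a ferritin heavy chain relative, from 3.30 and 1.67 to 0.273 and 0.447 CPM (-2.75 ± 0.57, adjusted p = 0.0352). Without wild-type replicate 1 the calls of Tex13 (-1.13, adjusted p = 0.0877), Tktl1 (-0.97, adjusted p = 0.102), Tex11 (-1.08, adjusted p = 0.0587), Nxf2 (-0.69, adjusted p = 0.0966) and Fthl17 (-2.12, adjusted p = 0.151) were lost, leaving 2 of 21. Leaving out wild-type replicate 2 ended the call of Fthl17 too (-3.11, adjusted p = 0.0534).

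Germ cell markers moved in the same direction as these genes. Of 21 tested markers 13 fell and none rose, none was at 0 in every library, and the summed level was 1361 and 917 CPM in wild type against 583 and 538 CPM in mutant. These 13 calls (61.9%, beside 5.67% of all tested genes) became 4 without wild-type replicate 1. The part of the germ cell share in the values of Fmr1nb, Asb9 or Clec12b was not tested. The 3 genes had similar profiles: Clec12b and Fmr1nb lay 0.26 apart on the centred log2 scale and Asb9 and Fmr1nb 0.29, the 2 smallest distances among pairs of the 8. Cyct, the testis form of cytochrome c, was among the 3 nearest genes of both Fmr1nb (0.119) and Clec12b (0.161), at 19.2 and 21.2 CPM in wild type and 4.37 and 5.36 CPM in mutant. D14Ertd668e was likewise near both, at 0.152 and 0.181, and Vsig1 was the nearest to Clec12b at 0.136. Choosing genes for a large drop makes such profiles alike, so the distances only describe.

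Dao (ENSMUSG00000042096.9, chromosome 5, 114453712 to 114475458, plus strand) encodes D-amino acid oxidase, a peroxisomal flavoenzyme known for breaking down D-serine and other D-amino acids in kidney and brain. Wild-type testes had 7.06 and 6.18 CPM of it, against 0 CPM in mutant replicate 1 and 1.79 CPM in mutant replicate 2. In counts these were 94, 63, 0 and 28. The mutant libraries thus differed from each other, and the lower wild-type library held 3.45 times the level of mutant replicate 2. The log2 fold change was -2.67 ± 0.60 (SE), the widest error relative to its size among the 8, and it was -1.89 without mutant replicate 1. Set against a floor of 3 counts in that library, 0.273 CPM, the level was at least 24.2-fold lower than the wild-type mean.

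Dao was also the gene whose call depended most on how the counts were handled. It passed the threshold in 5 of 12 alternative analyses, and it was lost with no filter on low counts, with DESeq2, limma voom or the legacy fit, with the replicate number as a block, and without wild-type replicate 1 (-2.56) or 2 (-2.76). Genes of its chemistry were called at a share near that of all genes. Of 22 tested genes for D-amino acid, serine and peroxisomal metabolism, 1 passed the test, falling (4.55%, beside 5.67% of all tested genes), and the median log2 fold change was -0.10. Srr, the racemase that makes D-serine, stood at 44.1 and 47.7 CPM against 43.6 and 41.8 CPM, and Ddo, the oxidase of acidic D-amino acids, had a log2 fold change of -0.07 ± 0.39. Both were chosen after their values were seen. Phgdh, the first enzyme of serine synthesis, fell from 88.9 and 81.6 CPM to 53.2 and 55.3 CPM (log2 fold change -0.65 ± 0.10, adjusted p = 0.0144 by edgeR). Leaving out wild-type replicate 1 ended its call (-0.59, adjusted p = 0.0522).

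The profile nearest to that of Dao was Hnf4a, a nuclear receptor of liver, gut and kidney, at a distance of 0.396. Hnf4a had 10.7 and 8.14 CPM in wild type, 0.273 CPM in mutant replicate 1 and 3.51 CPM in mutant replicate 2, and it was not called (log2 fold change -2.16 ± 0.55, adjusted p = 0.0588 by edgeR). Among the genes searched, those with mean log2 CPM of at least 1, Cldn2 at 1.012 and Sult1e1 at 1.132 followed at a distance. Tmsb15b1, outside that search, lay nearer to Dao than these 2, at 0.62. Cldn2, a claudin of leaky epithelia, had 13.5 and 9.90 CPM in wild type and 1.36 and 6.58 CPM in mutant. In Sult1e1, the oestrogen sulfotransferase, the groups overlapped, at 15.6 and 6.08 against 0.637 and 14.6 CPM. Dao, Hnf4a, Cldn2 and Sult1e1 were all lowest in mutant replicate 1. The last 3 were picked for profiles near that of Dao, so the shared minimum only describes that choice. Markers of mesothelium, rete testis and ducts were lowest in mutant replicate 1 in 8 of 14 cases. The share of all tested genes lowest in that library is not given here. The summed levels of the markers were 844 and 807 CPM in wild type and 790 and 1076 CPM in mutant replicates 1 and 2. None of these markers was at 0 in every library. Upk3b, Msln and Krt19 were instead above both wild-type libraries in both mutant libraries, Upk3b at 162 and 209 CPM against 85.7 and 103 CPM. With all libraries these 3 markers of the list rose and none fell (21.4%, beside 5.67% of all tested genes). None was called without wild-type replicate 1, 5 were called as higher without mutant replicate 1, and 3 as higher and 3 as lower without mutant replicate 2. How much of those tissues each library held, and its part in the Dao values, was not tested.

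Lrrc23 (ENSMUSG00000030125.5, chromosome 6, 124719881 to 124729745, minus strand) encodes a leucine-rich repeat protein of the radial spokes, the struts inside motile cilia and sperm tails. Wild-type libraries had 3.76 and 5.0 CPM and mutant libraries 0.364 and 0.319 CPM. In counts these were 50, 51, 4 and 5. Means were 4.38 ± 0.880 and 0.342 ± 0.0317 CPM (SD, n = 2 each). The 2 mutant libraries were alike, and the nearest libraries of the groups were 10.3-fold apart, the widest gap among the 8. Fitted over all 4 libraries, the log2 fold change was -3.64 ± 0.46 (SE), 12.4-fold lower. The depth-scaled count ratio was 12.7 with a 95% interval from 6.44 to 28.6.

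Ccdc67 (ENSMUSG00000039977.10, chromosome 9, 15364308 to 15432377, minus strand), named Deup1 in RefSeq, encodes the core protein of the deuterosome, on which multiciliated cells mass-produce centrioles. Its values were 4.21 and 2.74 CPM in wild type and 0.273 and 0.766 CPM in mutant, from 56, 28, 3 and 12 counts. Means were 3.48 ± 1.03 and 0.520 ± 0.349 CPM (SD, n = 2 each). Both groups were uneven: wild-type replicate 1 was 1.53 times wild-type replicate 2, and mutant replicate 1 was 0.356 times mutant replicate 2. The log2 fold change was -2.64 ± 0.49 (SE), 6.24-fold lower, and moved from -3.65 without mutant replicate 2 to -2.20 without mutant replicate 1. Leaving out wild-type replicate 1 ended its call, at -2.27.

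Other genes of cilia and centrioles are given from 2 lists, beside 5.67% called of all tested genes. In the radial spoke and axoneme list, 1 of 22 tested genes was called (4.55%), as lower, and the median log2 fold change was -0.29. The gene that fell was Dynlrb2, a dynein light chain used in cilia, with 24 and 21 counts in wild type and 0 and 2 in mutant. Its log2 fold change was -4.50 ± 0.75 (adjusted p = 0.0168 by edgeR), and the depth-scaled ratio of 25.5 had a 95% interval from 6.66 to 217. Leaving out wild-type replicate 1 (-4.60, adjusted p = 0.0577) or 2 (-4.43, adjusted p = 0.0557) ended the call. In 10 of the 22 both mutant libraries lay below both wild-type libraries, next to 29% of all tested genes.

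In the list of centriole assembly and multiciliation genes, 2 of 21 tested genes were called (9.52%, beside 5.67% of all), both as lower, with a median of -0.04. In 9 of the 21 both mutant libraries lay below both wild-type libraries, next to 29% of all tested genes. Such a gap can be small: Plk4 was among the 9, at 98.7% and 98.1% of its wild-type mean in the mutant libraries. Foxj1, the master transcription factor of motile cilia, went from 18.3 and 17.6 CPM to 3.64 and 8.68 CPM (log2 fold change -1.48 ± 0.31, adjusted p = 0.0361 by edgeR). Ccno, a cyclin needed to make many centrioles, went from 3.53 and 2.45 CPM to 0.273 and 0.830 CPM (-2.33 ± 0.49, adjusted p = 0.0365). Neither call held without wild-type replicate 1 (adjusted p = 0.116 for Foxj1 at -1.45 and 0.124 for Ccno at -2.02) or without wild-type replicate 2 (0.099 at -1.51 and 0.0613 at -2.54). Plk4, Cep63 and Cep152, which duplicate centrioles in dividing cells and were chosen after their values were seen, stood at -0.02 ± 0.08, -0.14 ± 0.11 and 0.09 ± 0.17. Cep63 is the close relative of Ccdc67, and Cep152 binds both.

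**Figure D2:**
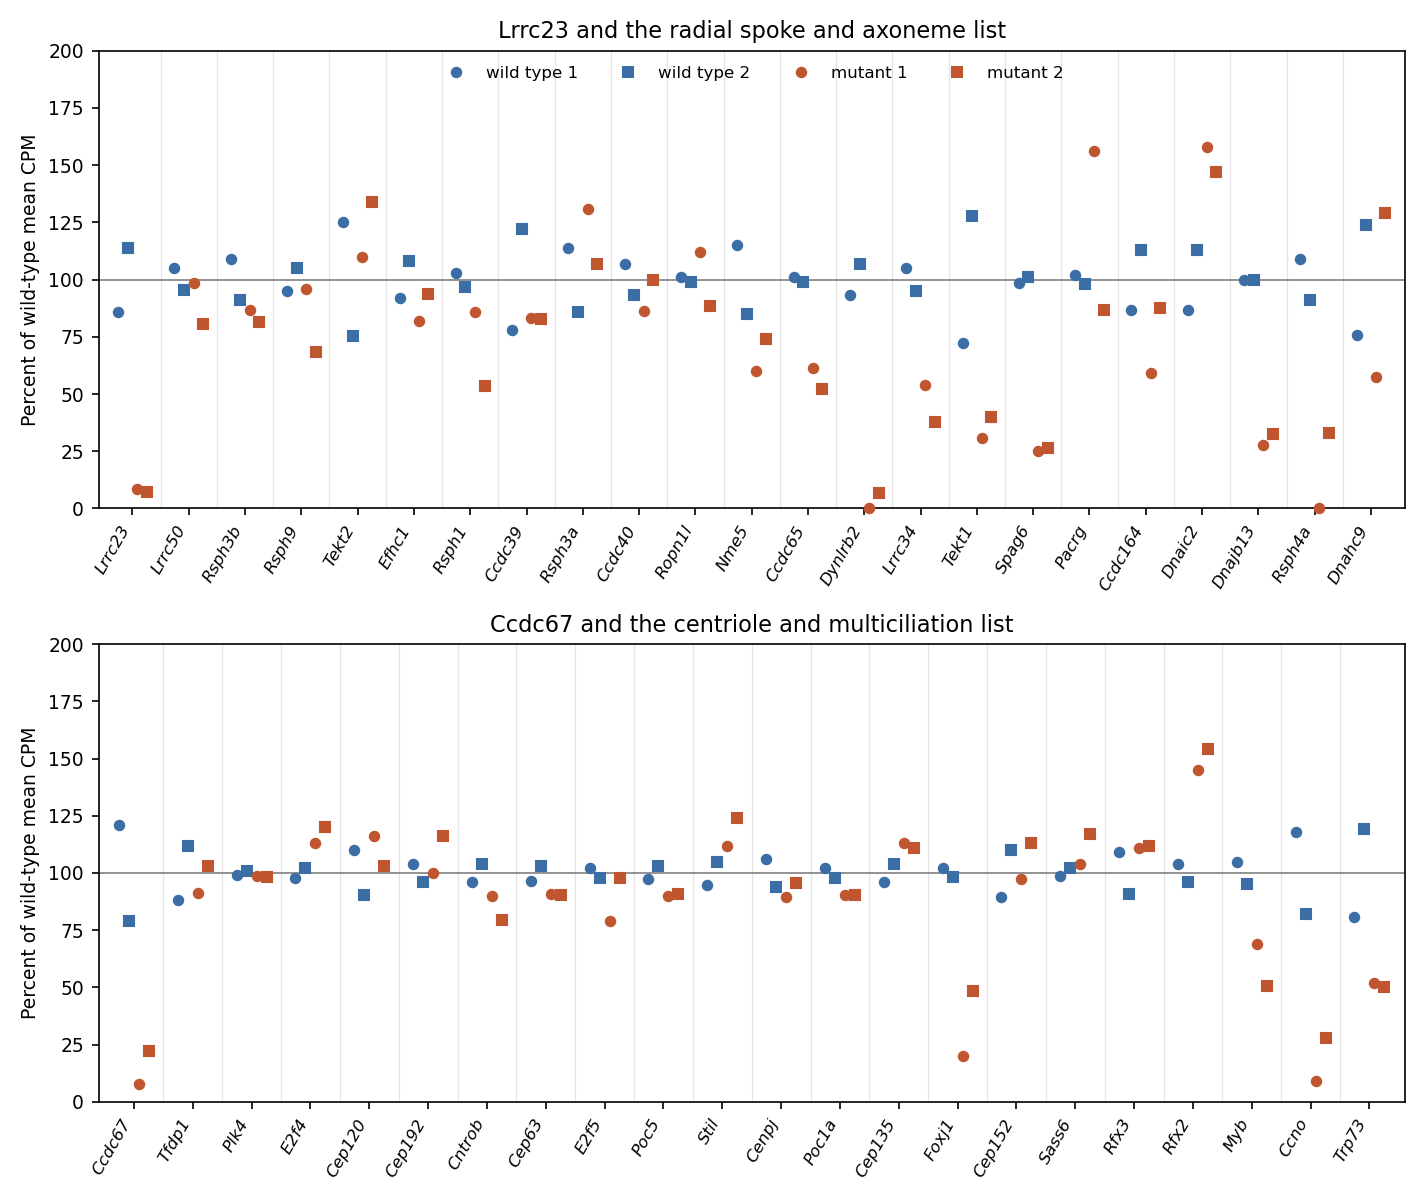
Level of Lrrc23 with the 22 tested genes of the radial spoke and axoneme list (top) and of Ccdc67 with the 21 tested genes of the centriole and multiciliation list (bottom), ordered by wild-type mean, in each library as percent of the wild-type mean CPM (vertical axis, linear, from 0). Lrrc23 is at 8.32% and 7.29% and Ccdc67 at 7.86% and 22.0% in mutant replicates 1 and 2, and 6 of the 22 and 2 of the 21 other genes have a mutant mean below 50%.

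Markers of multiciliated cells moved with these genes in part. Most of those tested also stand in the 2 lists above, so they are not a separate set. Of 8 tested markers 3 fell, the same Foxj1, Ccno and Dynlrb2, and none rose (37.5%, beside 5.67% of all tested genes). None was at 0 in every library. The tested markers in neither list, Tppp3 (0.48 ± 0.18) and Cdhr4 (0.78 ± 0.42), had positive log2 fold changes and were not called. With either wild-type library left out, none of the 8 was called, and without mutant replicate 2 there was 1 call as higher beside 3 as lower. The list's summed level was 101 and 99.5 CPM in wild type against 128 and 95.1 CPM in mutant, most of it from Tppp3, which went from 71.4 and 67.1 to 117 and 77.2 CPM and was not called. Of the 8 markers 5 were lowest in mutant replicate 1, as Ccdc67 was. No share of all tested genes lowest in that library stands beside this count, so it only describes the list. The part of ciliated cells in the values of Lrrc23 and Ccdc67 was not tested. Nearest in profile to Lrrc23 were Serpina3a (0.322), Rspo2 (0.385) and Fabp4 (0.475), and nearest to Ccdc67 were Acaa1b (0.316), Clic6 (0.329) and AI848285 (0.337). Rspo2, a secreted amplifier of Wnt signals, was at 8.11 and 5.49 CPM in wild type and 0.546 and 0.766 CPM in mutant. Fabp4 is an adipocyte gene, and of 9 tested adipocyte markers 5 fell and none rose (55.6%, beside 5.67% of all tested genes). Their summed levels were 322 and 274 against 227 and 170 CPM, and none was at 0 in every library. The 5 adipocyte calls became 3 when wild-type replicate 1 was left out and 2 when wild-type replicate 2 was. The part of adipocytes in the Lrrc23 values was not tested.

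Tmsb15b1 (ENSMUSG00000089768.2, X chromosome, 133508561 to 133511413, minus strand) encodes a beta thymosin, a short peptide that holds actin monomers out of filaments. Its level was 3.53 and 4.31 CPM in wild type, 0 CPM in mutant replicate 1 and 0.447 CPM in mutant replicate 2. In counts these were 47, 44, 0 and 7. Both mutant libraries were far below wild type, and the nearest libraries were 7.90-fold apart. On the log2 scale the change was -3.84 ± 0.61 (SE), 14.3-fold lower, and -3.09 without mutant replicate 1. The depth-scaled count ratio was 14.7 with a 95% interval from 6.87 to 37.7, and against a floor of 3 counts mutant replicate 1 was at least 14.4-fold below the wild-type mean.

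This gene is uncertain in a way not found for the other 7, because it shares sequence with its copies. Of 340 distinct 100-base windows in its transcript, 131 (38.5%) also occur in Tmsb15b2 or Tmsb15l. The other 7 genes share no such window with another protein-coding gene. Only protein-coding transcripts were searched, so pseudogenes and other sequence were not covered. Tmsb15l (133489527 to 133511408) is annotated across both copies, and 216 of the 439 exon bases of Tmsb15b1 lie in its exons too. A counter that sets aside reads on shared exons leaves the 223 exon bases outside Tmsb15l. The deposited counts keep ambiguous reads apart from the genes, at 0.602% to 0.726% per library. The labels do not state the counting mode or the annotation, so whether reads on these shared exons were among them is not known.

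The copies are given side by side. Tmsb15l fell from 4.21 and 5.20 CPM to 1.82 and 1.60 CPM (log2 fold change -1.45 ± 0.32, adjusted p = 0.0394 by edgeR). Its call was kept only without mutant replicate 1, and ended on leaving out wild-type replicate 1 (-1.62, adjusted p = 0.0877), wild-type replicate 2 (-1.31, adjusted p = 0.117) or mutant replicate 2 (-1.35, adjusted p = 0.0718). Tmsb15b2 was at 5.41 and 7.16 CPM in wild type and 5.37 and 4.85 CPM in mutant, and was not called (-0.29 ± 0.26, adjusted p = 0.522). Whether the 2 changes differ was not tested.

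**Figure D3:**
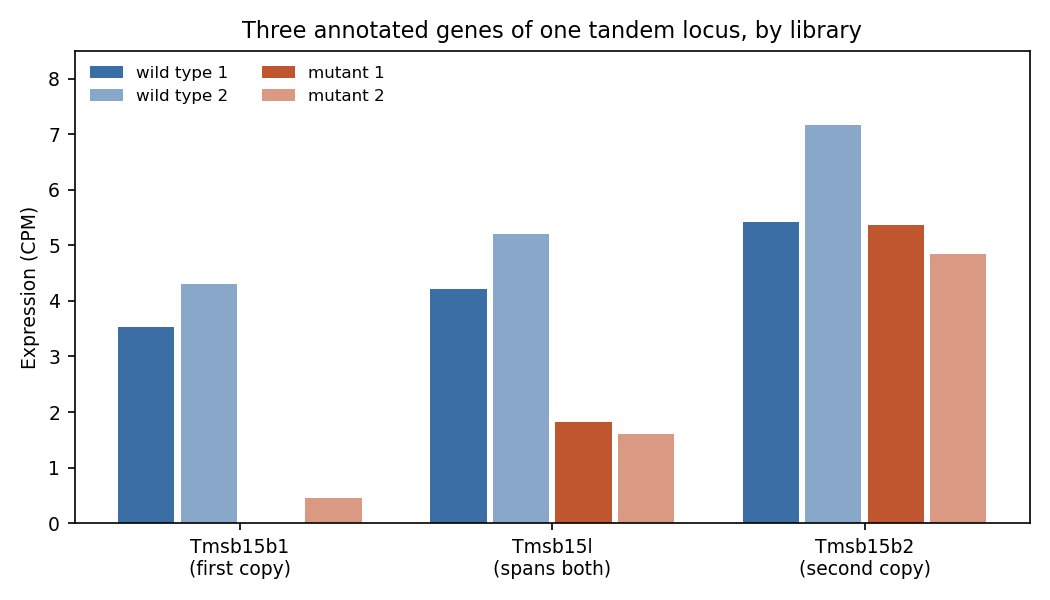
Expression in CPM (bars, from 0) of the 3 annotated genes of the Tmsb15 locus in each library. Tmsb15b1 has no bar in mutant replicate 1, Tmsb15l is lower in both mutant libraries, and the Tmsb15b2 bars of mutant replicate 1 and wild-type replicate 1 are nearly level at 5.37 and 5.41 CPM.

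Summed over the 3 genes the locus gave 13.1 and 16.7 CPM in wild type and 7.19 and 6.89 CPM in mutant. The share assigned to Tmsb15b1 was 26.9% and 25.9% in wild type, and 0% and 6.48% in mutant. The upstream stretches printed above differ at 5 of 215 bases, and Tmsb15l starts from the same window as Tmsb15b1. No abundant beta thymosin was called: Tmsb4x was at 696 and 661 CPM in wild type and 639 and 740 CPM in mutant (log2 fold change 0.02 ± 0.10), and Tmsb10 stood at 0.15 ± 0.10, both chosen after their values were seen. In the whole list of thymosins and actin monomer binding genes, 1 of 18 fell, which was Tmsb15l, none rose, and the median was -0.00. Among the genes searched, the nearest profiles to Tmsb15b1 were Hnf4a (0.617), Rspo2 (0.692) and Stra8 (0.734), and Dao, outside that search, lay at 0.62.

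**Figure D4:**
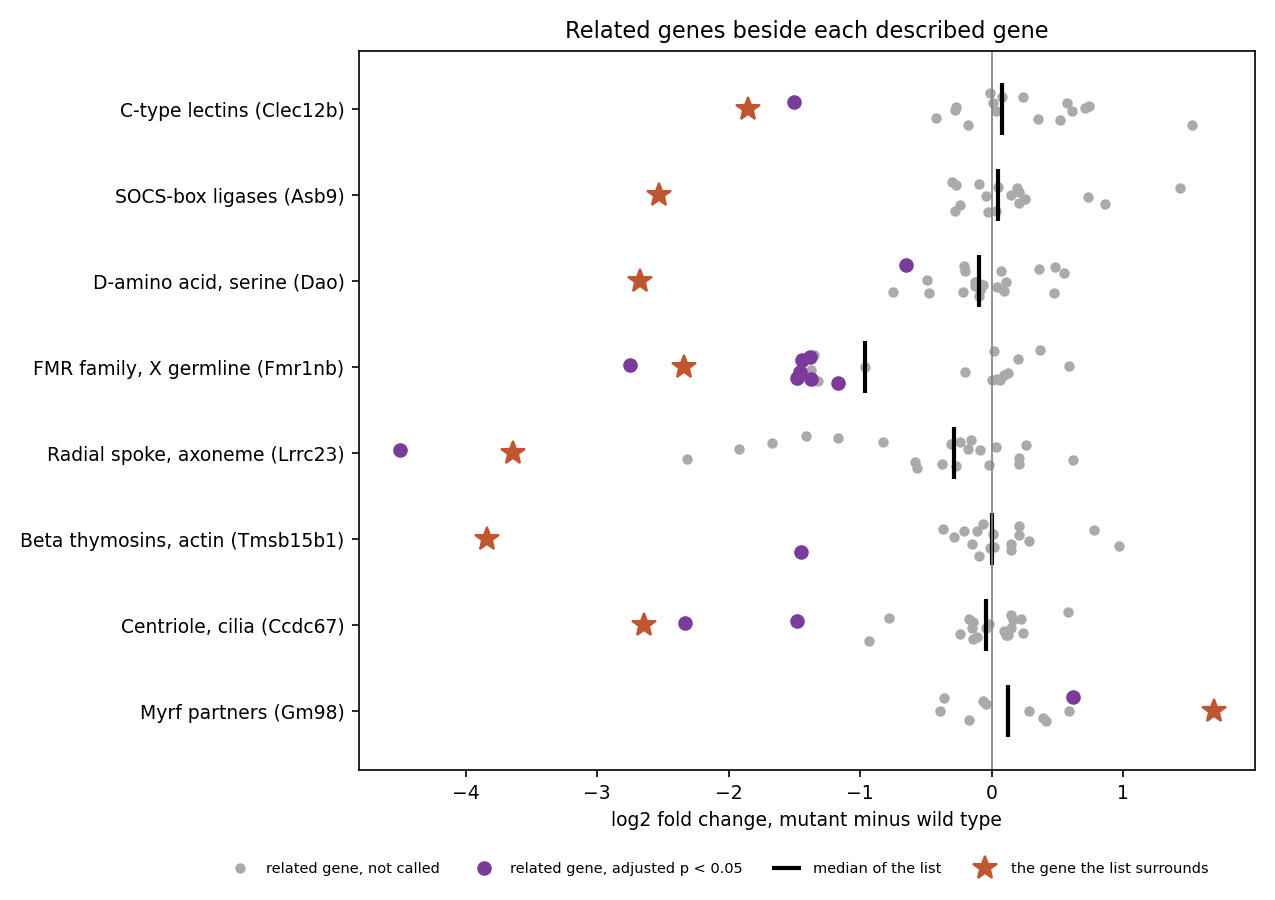
Log2 fold change, mutant minus wild type (horizontal axis), of the tested genes in each of the 8 related lists (grey, not called; purple, adjusted p below 0.05), the list median (black bar) and the gene the list was built around (star; the chosen genes, shown as a description). Each star is farther from 0 than its list's median, with the FMR family and X germline list the farthest from 0 at -0.96.

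Per length of transcript the 8 genes covered a wide range in wild type. In CPM per kilobase of exon, Clec12b was at 52.3, Asb9 at 9.79, Tmsb15b1 at 8.93, Fmr1nb at 6.30, Gm98 at 4.03, Dao at 2.72, Lrrc23 at 2.52 and Ccdc67 at 1.05. Asb9 and Tmsb15b1 overlapped between their replicates in this order, as did Dao and Lrrc23, so those neighbours are not separated. The Tmsb15b1 value divides by all 439 of its exon bases. If the counter set aside reads on exons shared with Tmsb15l, only 223 bases would count and its value would be higher. Its place in this order is therefore uncertain. In mutant libraries Clec12b at 14.5 and Gm98 at 13.0 led, and the other 6 were at 1.73 or below. Gm98 thus came after Fmr1nb per kilobase in wild type and next to Clec12b in mutant.

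Over the 8 related lists together, 14 of 148 tested genes were called (9.46%), 1 higher and 13 lower, beside 5.67% of all tested genes, and the median log2 fold change was -0.06. That count depended on the wild-type libraries. Without wild-type replicate 1 it was 2, and without wild-type replicate 2 it was 9. All 8 chosen genes passed the threshold in the full fit, from which nothing is read because the same contrast chose them.

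**Figure D5:**
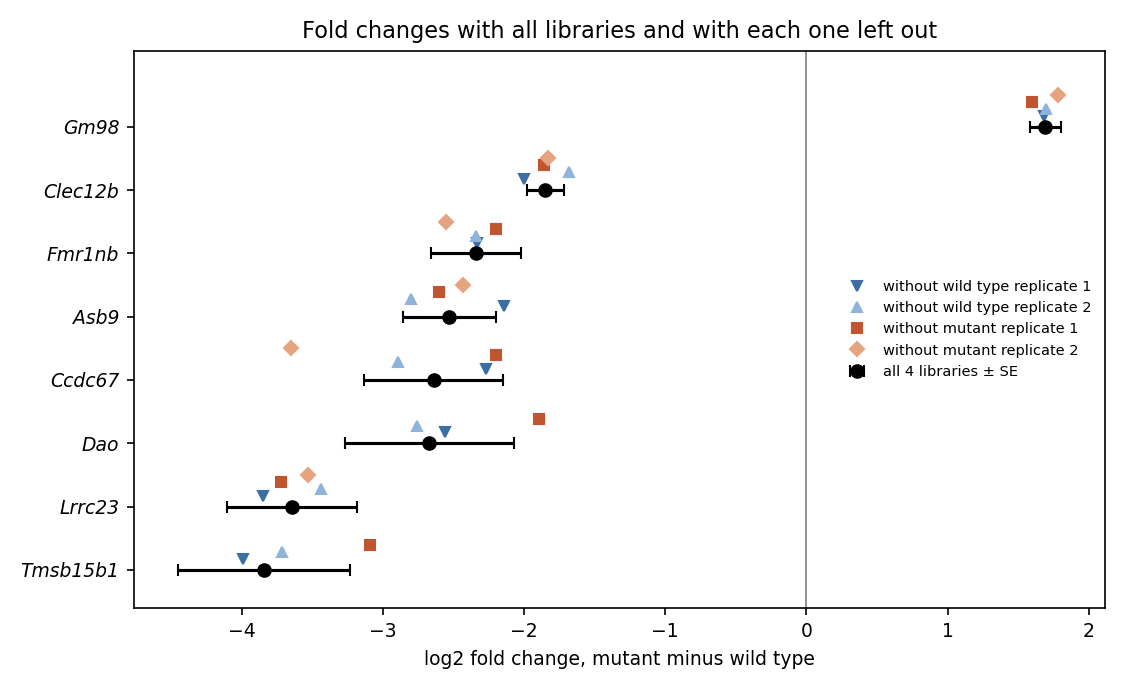
Log2 fold change, mutant minus wild type (horizontal axis), of the 8 genes with all 4 libraries (black, ± SE) and with each library left out (coloured symbols); the points without mutant replicate 2 are not drawn for Dao and Tmsb15b1, which then have only a library at 0 counts in the mutant group. Every drawn point keeps its side of 0, which choosing genes with groups that do not overlap all but fixes. Ccdc67 moves most, from -3.65 to -2.20.

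Position on the chromosome was examined through the 3 nearest genes on each side of each of the 8, 48 in all. Of the 35 tested, 4 rose, 1 fell and 30 were not called (14.3% called, beside 5.67% of all tested genes), with a median log2 fold change of 0.02. Leaving out either wild-type library gave 1 call in place of 5. The one that fell was Tmsb15l, described above. Syt7, a synaptotagmin 148342 bases from Gm98, rose from 43.6 and 57.7 CPM to 78.0 and 74.1 CPM (log2 fold change 0.59 ± 0.14, adjusted p = 0.0459 by edgeR), in the direction of Gm98. It was not called without wild-type replicate 1 (0.39, adjusted p = 0.109) or mutant replicate 1 (0.55, adjusted p = 0.0513).

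The other 3 neighbours rose beside a gene that was lower. Figf, the vascular growth factor VEGF-D, 103677 bases from Asb9, stood at 0.77 ± 0.13 (adjusted p = 0.0221), Selplg, the P-selectin ligand of leukocytes, 173202 bases from Dao, at 1.27 ± 0.28 (adjusted p = 0.0404), and Fat3, a large cadherin 282272 bases from Ccdc67, at 0.91 ± 0.14 (adjusted p = 0.0153), all by edgeR. The call of Figf ended on leaving out wild-type replicate 1 (0.82, adjusted p = 0.0628) or 2 (0.72, adjusted p = 0.0692), and that of Fat3 on leaving out wild-type replicate 2 (0.84, adjusted p = 0.0534). Selplg was kept only without mutant replicate 1. It was at 1.21 (adjusted p = 0.136) without wild-type replicate 1, 1.32 (adjusted p = 0.104) without wild-type replicate 2 and 1.09 (adjusted p = 0.0807) without mutant replicate 2. The next closest genes after the overlapping Tmsb15l were not called: Eno2, 190 bases from Lrrc23, was at 0.28 ± 0.24, and 1810006K21Rik, 448 bases from Gm98, at -0.13 ± 0.10, both chosen after their values were seen.

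Sertoli cells, in which the receptor allele is driven, could be recognised in every library. Of their 22 markers, all tested, 1 rose and 5 fell (27.3% called, beside 5.67% of all tested genes). None was at 0, and their summed level was 8754 and 9566 CPM in wild type against 7736 and 7817 CPM in mutant. Cldn11, the claudin of the Sertoli cell barrier, fell from 126 and 126 CPM to 51.4 and 56.5 CPM (log2 fold change -1.22 ± 0.09, adjusted p = 0.00236 by edgeR) and was called with each library left out. In the other lists, none of 10 Leydig cell markers was called (1 at an unadjusted p below 0.05, 1 called by DESeq2 and 0 by limma voom). None of 11 peritubular and stromal markers was called (4, 1 and 0 likewise). Of 16 skeletal muscle markers 12 rose (75%, beside 5.67% of all tested genes). By limma voom 0 of the 16 muscle markers were called and by DESeq2 14, and edgeR called 5 when wild-type replicate 1 was left out, 7 when wild-type replicate 2 was and 16 when either mutant library was. The muscle sum was 112 and 86.8 CPM in wild type against 3104 and 837 CPM in mutant. Of the 7 lower genes, Dao, Fmr1nb, Tmsb15b1 and Ccdc67 were lowest in mutant replicate 1, while Clec12b, Asb9 and Lrrc23 were lowest in the other mutant library. Choosing groups that do not overlap puts each minimum in a mutant library, so the split only describes. The mutant values lay close together in Clec12b (22.7 and 22.1 CPM), Asb9 (2.09 and 1.85 CPM), Lrrc23 (0.364 and 0.319 CPM) and Fmr1nb (1.00 and 1.28 CPM). The part of the muscle RNA in these values was not tested.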

How the data were processed

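Polyadenylated RNA of whole testes was read as 100-base single-end reads in 4 libraries, 2 per genotype label. The submitters' processing notes name TopHat 1.4.0, HTSeq, CASAVA 1.8.1 and DESeq2, with the build mm9 and no roles. The authors deposited 1 table, treated under the unit estimated counts because percentages stand below the genes; every gene value is a whole raw count, so rounding changed nothing. Not given in the sources used here are the counting mode, the annotation and the strand setting. Reads in no gene (13.8% to 17.3%) and ambiguous reads (0.602% to 0.726%) were left out. The sums of gene counts, 10230512 to 15636832 per library, set the precision.

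Genotype was tested with edgeR 4.0.16 (R 4.3.3; quasi-likelihood F test, legacy option off, TMM, two-sided), after edgeR's filter (minimum count 10, total 15), over 14788 genes with Benjamini-Hochberg adjustment at 0.05. All 8 chosen genes passed the filter, and 3868 genes had no count. CPM uses TMM-scaled library sizes and a group value is mean ± SD. The fit was tested on simulated data. The genes described, the 8 related and 9 marker lists and the tests were chosen with earlier results of these data known. Named are the 8 genes, their near-identical copies, Thra, Acta1, up to 4 called genes per list by fold (2 by p where none was called), called neighbours, and the 3 nearest profiles with mean log2 CPM of at least 1; not all are described. Gene positions are GENCODE M1 (mm9), sequences RefSeq (GRCm38.p6). The 12 alternatives were other normalisations, filters and tools (DESeq2 1.42.0, limma 3.58.1), each library left out, and a block for the replicate number.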

Additional observations from a re-analysis of the deposited data

How the results depend on the processing

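All 8 chosen genes kept their direction in all 12 alternative analyses. They were chosen for groups that did not overlap, which leaves little room for a reversal, so the kept direction only describes that choice. Of the 96 fold changes 88 kept their side of the threshold, and of the 8 that did not 7 were of Dao and 1 of Ccdc67. The chosen genes passing numbered 8, or 6 to 8 with each library left out (lowest when wild-type replicate 1 is left out), and 7 with no filter, DESeq2, voom, the legacy fit or the block.

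With no filter on low counts, which tests more genes, calls went from 839 to 500 over all genes, from 14 to 7 over related genes and from 5 to 2 over neighbours. With limma voom the related genes gave 8, the neighbours 3 and the markers 27 in place of 46 (20 higher and 26 lower, against 6 and 21). The cause of the voom differences was not tested. With each library left out, which tests fewer samples, calls ran from 253 to 1188 over all genes, from 2 to 20 over related genes, from 1 to 6 over neighbours and from 21 to 60 over markers. Leaving out wild-type replicate 1 gave the lowest counts (253, 2, 1 and 21), and leaving out wild-type replicate 2 gave 275, 9, 1 and 35. A lone library was assumed to vary like the other group.

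With the replicate number as a block the calls were 853 over all genes, 7 over the chosen genes (Dao lost), 12 over related genes, 4 over neighbours and 55 over markers. Deviations of same-numbered libraries correlated at -0.031. With 2 libraries per group the crossed value, 0.031, is the same number with its sign turned and adds nothing. This correlation cannot tell whether same-numbered libraries share more than a number. The median log2 fold change of all tested genes stayed between -0.01 and 0.00 throughout. Depth limits Dao, Tmsb15b1, Lrrc23 and Ccdc67 most, at 28, 7, 9 and 15 mutant counts. With 2 libraries per group, no outlier could be tested.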
